A study of Mus musculus with 8 samples.

Results

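Kdm6b encodes Jmjd3, the histone demethylase whose binding was mapped in these mouse macrophages, and its own locus is described here across the 8 chromatin immunoprecipitation sequencing (ChIP-seq) libraries of the series. The locus was taken as the 60 kb window from position 69190000 to position 69250000 on chromosome 11 of the mm8 build, and every listed peak inside it was kept. The window held 45 of the 364537 peaks of the 8 lists. The H3K27me3 library of stimulated cells listed a block of 6 tall peaks in the window that the library of untreated cells did not list. The block reached into the start of an H3K4me3 cluster that was wider at 4 h. The lists hold positions and not reads, so whether the block's tags came from H3K27me3 chromatin or from other DNA of the same sequence in that library (cDNA or plasmid, for example) cannot be told apart. Summed RNA polymerase II (Pol II) counts at the locus, relative to the median of all 60 kb tiles, were at 0.990 times at 2 h and 0.666 times at 4 h, both within a 2-fold departure.

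The cells were primary bone marrow-derived macrophages from female Fvb mice aged 6 to 8 weeks, and the number of animals behind a library is not given in the sources used here. Cells stimulated with lipopolysaccharide (LPS) and interferon gamma were collected at 2 h for Jmjd3, at 2 and 4 h for Pol II, and at 4 h for H3K4me3 and H3K27me3. Untreated cells (0 h) served for Pol II, H3K4me3 and H3K27me3. With 1 library behind each antibody at each time, nothing below has replicates and no p-values are given. Every library had more than 10000000 uniquely mapped tags, per the labels. The lists held 4398 Jmjd3 peaks, 55600 to 57513 Pol II peaks, 21418 and 19631 H3K4me3 clusters, and 59684 and 89093 H3K27me3 peaks. The value of a peak is its overlap count, the greatest number of overlapping tags or fragments there, and no list went below 9 to 11 counts.

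LPS is known to induce Kdm6b in macrophages through NF-kappa B. The enzyme demethylates lysine 27 of histone H3, where trimethylation (H3K27me3) is laid down by Polycomb repressive complex 2 and accompanies silent genes. H3K4me3 marks promoters, and Pol II ChIP-seq shows where the transcribing enzyme sits along a gene. In the gene order of the GRCm38.p6 assembly, the protein-coding neighbours of Kdm6b are Tmem88, Naa38 and Cyb5d1 on one side and Dnah2 on the other. That assembly differs from mm8, so peaks were not assigned to genes and are named by position. The window may hold parts of these neighbours, and the macrophage marker genes were not examined for the same reason.

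H3K4me3 clusters divided the window into sections that order the results. The left cluster covered positions 69209804 to 69214466 in both lists together. The right clusters covered positions 69221484 to 69238055, and a stretch of 7.02 kb separated them from the left one. Apart from 1 low Pol II peak at 0 h and 1 H3K27me3 peak at each time, all of the window's listed positions lay in these 3 sections.

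**Figure D1:**
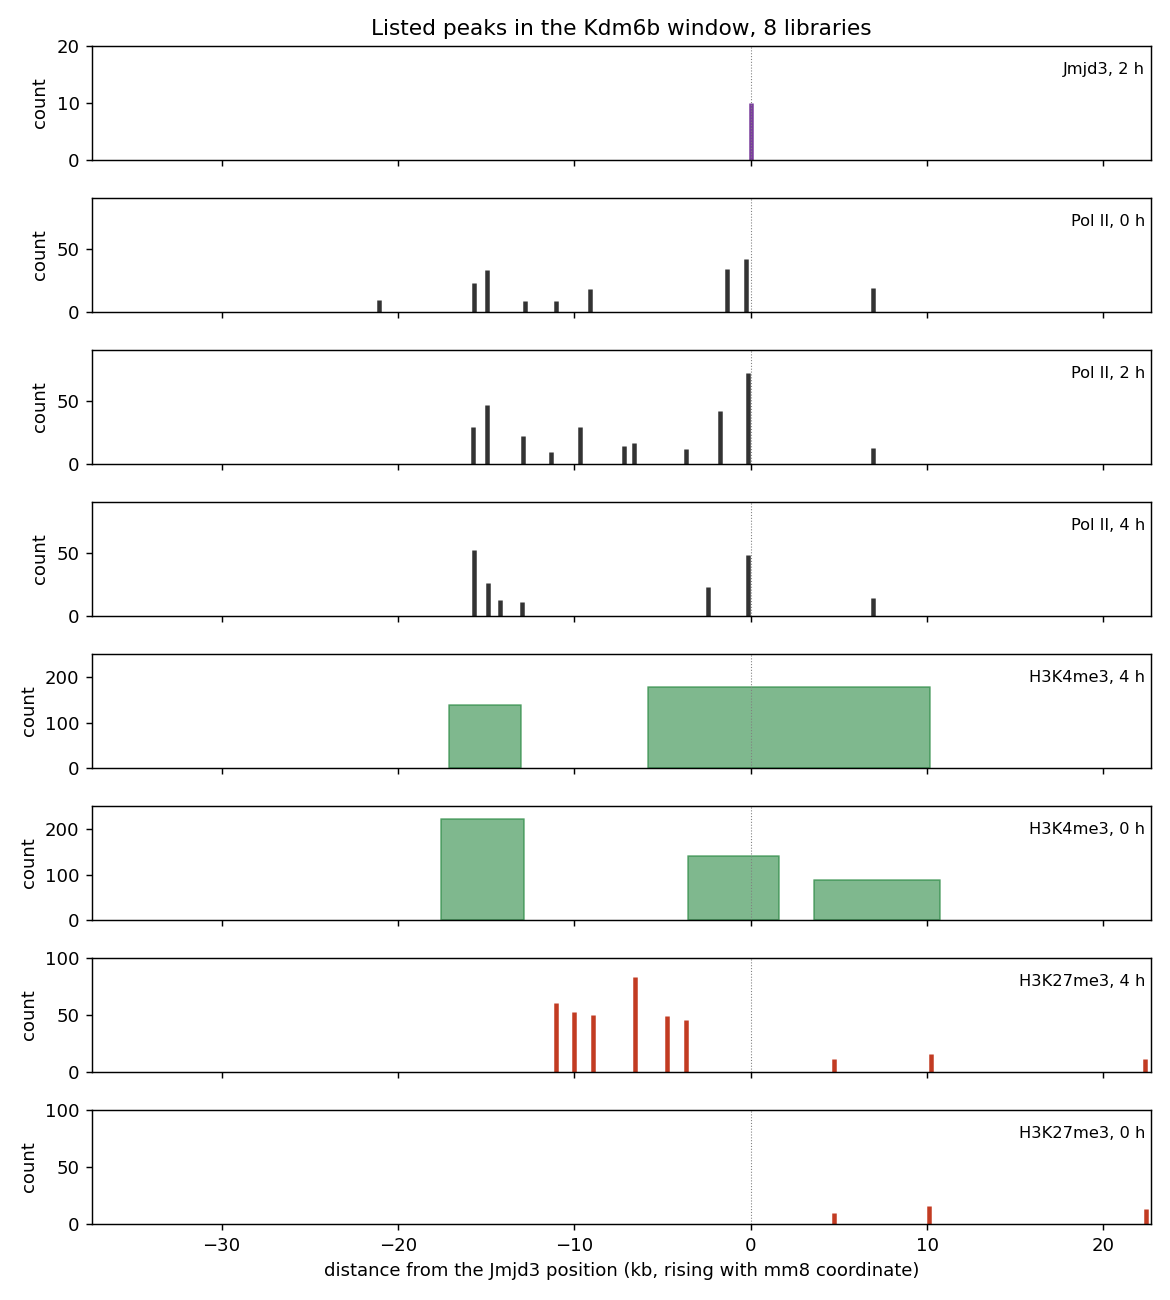
All 45 listed peaks of the Kdm6b window, 1 panel a library, with the overlap count upward (the scale differs between antibodies) and the distance in kb from the Jmjd3 position across. Lines are single positions and filled boxes are H3K4me3 clusters from their start to their end. The 6 H3K27me3 positions with 46 to 83 counts appear in the 4 h panel and not in the 0 h panel.

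Jmjd3 itself was listed once in the window, at position 69227334 with 10 counts. This was a low peak. It equalled the median of its list, and 2972 of the 4398 Jmjd3 peaks were at least as tall. The peak lay inside an H3K4me3 cluster at both times, as 83.8% of all Jmjd3 positions did at 4 h. It was 155 bp from the tallest Pol II peak of the window at 2 h, and 80.7% of all Jmjd3 positions were under 500 bp from a Pol II peak of that time. Jmjd3 was listed in 3040 of the 22050 tiles of 60 kb that held any peak (13.8%), and 29.1% of those 3040 had a lower summed Jmjd3 count than the window. With 1 Jmjd3 library and no control library analysed here, a peak of this height has no check of its own.

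Pol II was listed at the right clusters at all 3 times, with its tallest peak of the section next to the Jmjd3 position. That peak had 42 counts at 0 h (position 69227063), 72 at 2 h (position 69227179) and 48 at 4 h (position 69227165). In raw counts it was lowest in untreated cells and highest at 2 h, while its rank within its own list was highest at 0 h and lowest at 4 h. At 0 h it stood above 87.5% of its own list, at 2 h above 85.6% and at 4 h above 79.7%. Over all 28834 Pol II positions of 2 h with a 0 h position under 500 bp away, the median ratio of counts was 1.44. The ratio at the Jmjd3 position was 1.71, or 1.19 times that median (95% counting interval 0.800 to 1.78). For 4 h over 2 h the ratio was 0.667 against a median of 1 over 38929 pairs (interval 0.453 to 0.974). For 4 h over 0 h it was 1.14, or 0.791 times the median of 1.44 over 31495 pairs (interval 0.512 to 1.23). These intervals are exact binomial ones that treat counts as separate molecules and cover counting error only.

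A second Pol II peak of the right clusters had 34 counts at 0 h (position 69225964) and 42 at 2 h (position 69225594). At 4 h the nearest was position 69224934 with 23 counts, 660 bp from the 2 h one. The Pol II peak at the highest coordinates, near position 69234290, was low throughout, with 19 counts at 0 h, 13 at 2 h and 14 at 4 h. One position was listed only at 2 h, 69223692 with 12 counts. In sum the right clusters held 95 Pol II counts at 0 h, 139 at 2 h and 85 at 4 h.

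In the left cluster a pair of neighbouring Pol II peaks was listed at each time, and their order of height changed. The first, near position 69211631, had 23 counts at 0 h and 29 at 2 h, then 52 at 4 h. The second, near position 69212402, had 33 counts at 0 h and 47 at 2 h, then 26 at 4 h. The second was thus the taller at 0 and 2 h and the first at 4 h. Relative to the median of all pairs, the 4 h over 2 h ratio was 1.79 for the first (interval 1.12 to 2.93), above 91.3% of pairs, and 0.553 for the second (0.329 to 0.912), above 6.33% of pairs. Neither reached a 2-fold departure from the median. A further peak of the section was listed at 2 h at position 69214428 with 22 counts and at 4 h at position 69214373 with 11, and another at 4 h alone at position 69213135 with 13. Outside all sections, position 69206234 had 10 Pol II counts at 0 h.

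Paired Pol II positions of the window were too few to say whether they passed that 2-fold bound more or less often than all pairs. At 2 h over 0 h, 0 of 7 pairs did so upward (14.3% over all pairs) and 1 downward (12%), the peak near position 69234290. At 4 h over 0 h, 0 of 5 did so upward (10.5%) and 0 downward (8.52%). At 4 h over 2 h, 0 of 5 did so upward (6.16%) and 1 downward (4.24%), the low peak at position 69214373 at the edge of the left cluster, with 11 counts at 4 h and 22 at 2 h.

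The stretch between the clusters listed Pol II at 0 and 2 h and none inside its borders at 4 h. At 0 h it held positions 69214538, 69216268 and 69218236 with 9, 9 and 18 counts. At 2 h it held positions 69215986, 69217639, 69220130 and 69220718 with 10, 29, 14 and 17 counts. The 4 h list goes down to 11 counts, so a peak with 9 or 10 counts at 4 h could not have entered it. Paired peaks typically had more counts at 4 h than at 0 h (median ratio 1.44), so that bound alone need not keep out low 0 h peaks. The 0 h position 69214538 also had partners across the border of the left cluster. These were position 69214428 at 2 h (22 counts, 110 bp away) and position 69214373 at 4 h (11 counts, 165 bp away). For scale, 1176 stretches of 2 to 20 kb between H3K4me3 clusters had Pol II at both 0 and 2 h, and 15.1% of them listed none at 4 h. Among the 280 that held at least 3 positions at 0 h and 4 at 2 h, as this one did, 2.5% listed none at 4 h. These bounds were chosen after the values had been seen.

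**Figure D2:**
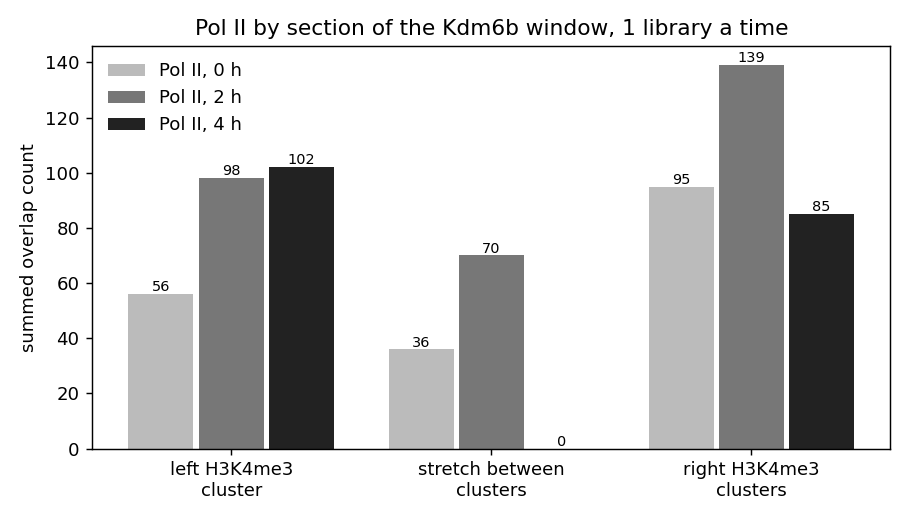
Summed Pol II overlap counts in the 3 sections of the Kdm6b window, with 1 bar a time (1 library each, no error bar). The stretch between the clusters has 36 counts at 0 h, 70 at 2 h and none listed at 4 h (drawn as 0), while the left cluster has 56, 98 and 102. The 4 h list goes down to 11 counts and the 0 h list to 9. A low 0 h peak of the stretch has its partners of 2 h and 4 h across the border, in the left cluster.

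Section by section, the left cluster held 28.4% of the window's Pol II count at 0 h (95% exact interval 22.2 to 35.3). Its share was 31.9% at 2 h (26.7 to 37.5), and at 4 h it was 54.5% (47.1 to 61.8), the highest of the 3. The share of the right clusters was 48.2% at 0 h, then 45.3% at 2 h and 45.5% at 4 h, with intervals that overlapped. The stretch between held 18.3% at 0 h (13.1 to 24.4), and 22.8% at 2 h (18.2 to 27.9). Such shares do not depend on the depth of a library as a scale factor, although a list's lowest count decides which low peaks enter. The peak at the border of the left cluster counted in the stretch at 0 h (position 69214538, 9 counts). Its partners at 2 h (position 69214428, 22 counts) and 4 h (position 69214373, 11 counts) counted in the left cluster. Part of the difference in share between times is this change of section.

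Over the whole window, 9 Pol II peaks summed to 197 counts at 0 h, 11 peaks to 307 counts at 2 h and 7 peaks to 187 counts at 4 h. The 2 h over 0 h ratio of summed counts was 0.990 times the median ratio of 9582 tiles of 60 kb (interval 0.825 to 1.19), with 49.4% of tiles lower. The window's ratio at 2 h thus lay in the middle of the tiles. At 4 h the ratio to 0 h was 0.666 times the median tile (0.542 to 0.817) with 25.1% of tiles lower, and the ratio to 2 h was 0.663 times (0.549 to 0.797) with 15.2% lower. The window passed a 2-fold departure from the median tile in none of these comparisons. Tiles that did made up 15.5% upward and 17.4% downward at 2 h over 0 h, 14% and 14.9% at 4 h over 0 h, and 8.29% and 6.62% at 4 h over 2 h.

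Shares of gained and lost Pol II positions in the window lay below those of the whole lists in some comparisons and above in others. The positions were too few to read a difference from. A position is called gained, or lost, when the other time lists none under 500 bp away. At 2 h 4 of the 11 positions were gained against 0 h, where the share over the whole list was 49.6%, and 2 of the 9 positions of 0 h were lost (48.2% over the list). At 4 h 2 of 7 were gained against 0 h (45.2%) and 4 of 9 lost (43.4%). Against 2 h, 2 of 7 positions were gained at 4 h (32.3%) and 6 of the 11 were lost (32%).

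H3K4me3 was lower at the left cluster and wider over the right ones in stimulated cells. The left cluster had 139 counts over 4038 bp at 4 h and 222 counts over 4663 bp at 0 h. Its ratio was 0.629 times the median of the 17651 clusters that matched one to one between the lists, and 6.95% of those were lower. A fall to 1/2 of the median or beyond was met by 2.19% of these clusters, and the left cluster was not among them.

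On the right, 1 cluster of 16.0 kb with 177 counts, positions 69221484 to 69237497, was listed at 4 h. At 0 h the same ground held 2 clusters, positions 69223797 to 69228961 with 140 counts and positions 69230931 to 69238055 with 88 counts. The 4 h cluster was thus taller than either in raw counts, reached 2.31 kb further toward lower coordinates and closed the space between them. Relative to the median of its own list its height was 1.82 times, against 1.79 and 1.13 times for the 2 clusters of 0 h. Of the 19631 clusters at 4 h, 14 were at least as wide, this one included, and the median width was 2870 bp. Clusters at 4 h that spanned 2 or more clusters of 0 h made up 1.83% of the list, and the reverse was equally frequent at 1.83%. None of the 2 clusters at 4 h was gained (5.07% over the list) and none of the 3 at 0 h was lost (13.1%).

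For the window as a whole the summed count of H3K4me3 was lower at 4 h and the covered length greater. Within the sections, height in raw counts and width went the same way. The left cluster was lower and narrower, and the right one taller and wider. Summed counts were 316 at 4 h and 450 at 0 h, which was 0.706 times the median tile (0.609 to 0.817), with 9.89% of 11661 tiles lower. A 2-fold departure was met by 0.695% of tiles upward and 2.6% downward, and the window was among neither. Part of the lower sum follows from the merging, since 1 joined cluster contributes 1 count in place of 2. Covered length was 20.1 kb at 4 h and 17.0 kb at 0 h, or 1.24 times the median tile.

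**Figure D3:**
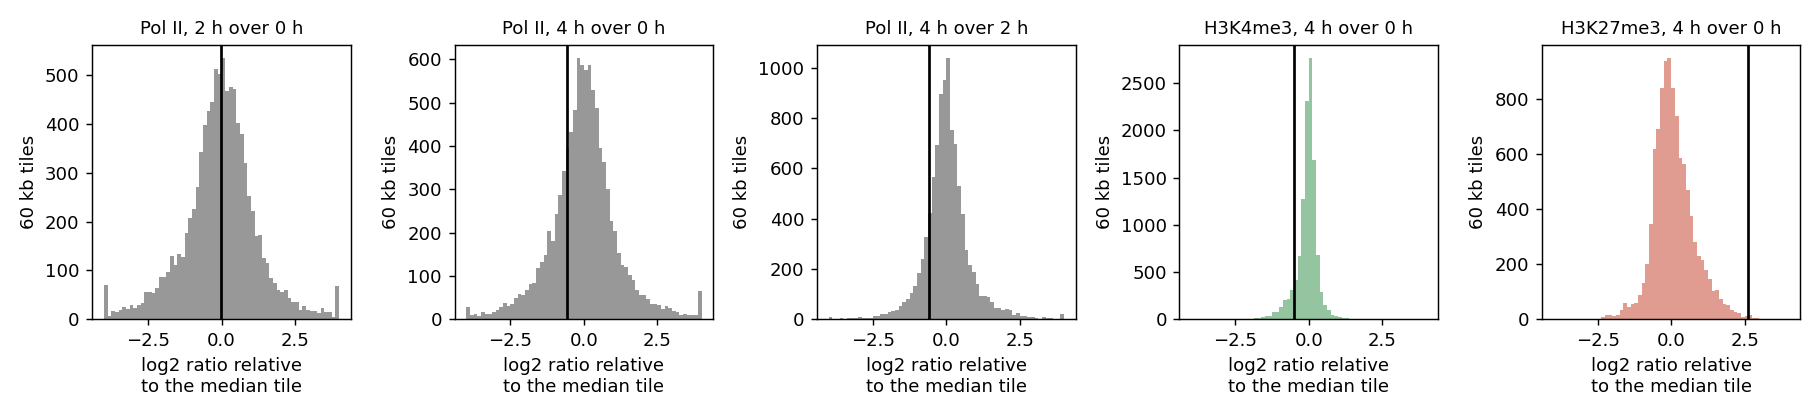
Distribution over 60 kb tiles of the log2 ratio of summed counts relative to the median tile, for 5 comparisons of times (values beyond 4 or -4 are in the end bars). The black line is the Kdm6b window, at -0.01, -0.59 and -0.59 for Pol II, -0.50 for H3K4me3 and 2.62 for H3K27me3.

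Of the 5 comparisons of times over tiles, that of H3K27me3 lay farthest from the median tile. At 4 h 9 positions were listed, against 3 at 0 h. The 3 of untreated cells were all found again at 4 h with like counts. Position 69232074 had 12 counts at 4 h and its partner 69232068 had 10 at 0 h. Position 69237583 had 16 counts at 4 h and its partner 69237446 had 16 at 0 h. Position 69249707 had 12 counts at 4 h and its partner 69249722 had 13 at 0 h. Over 43039 such pairs the median ratio was 1.27, and these 3 lay at 0.943, 0.786 and 0.725 times that median, with intervals that include 1. None of the 3 passed a 2-fold departure, which 0.358% of pairs did upward and 0.316% downward.

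The other 6 positions of the 4 h list formed a block of 7.39 kb that reached across the stretch between the clusters into the start of the wide H3K4me3 cluster. Their counts were 61 at position 69216276, 53 at 69217335, 50 at 69218392, 83 at 69220789, 49 at 69222562 and 46 at 69223665. All 6 stood far above the list's median of 13, with 94.2% to 98.4% of the 89093 positions lower. Neighbours within the block were 1057 to 2397 bp apart. At 0 h no H3K27me3 position was listed between 69188018 and 69232068, a space of 44.1 kb, although that list went down to 9 counts. The block was 8.40 to 15.8 kb from the nearest 0 h position.

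H3K27me3 positions without a 0 h partner were common in the list, but tall ones far from any 0 h position were not. In the window 6 of 9 were gained, against 51.7% of the list, and none of the 3 of 0 h was lost (28.3%). Of the 46054 gained positions, 0.61% had at least 46 counts, the lowest count of the block. Of the 25257 positions that lay 2 kb or more from any 0 h position, the median count was 11, and the 6 of the Kdm6b window were the only ones with at least 46 counts. The next tallest of them had 32 counts (position 81440461 on chromosome 12, 2.34 kb from a 0 h position). Tall positions far from the other list did occur in the opposite direction. Of the 0 h list, 8 positions had at least 46 counts and lay 2 kb or more from any 4 h position, led by position 4582853 on chromosome 17 with 138 counts. None of those was in the window. The height and distance bounds were set after the block had been seen.

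**Figure D4:**
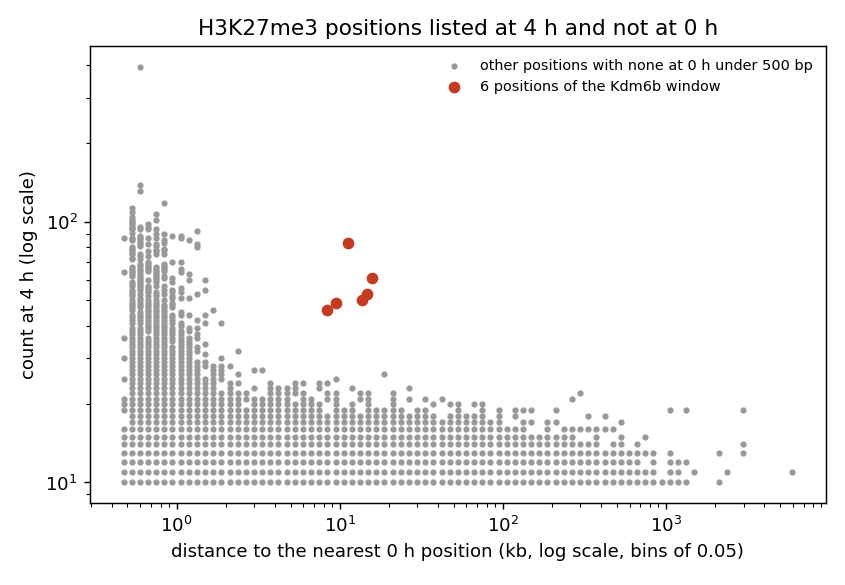
Overlap count at 4 h against the distance to the nearest 0 h position, both on log scales, for H3K27me3 positions listed at 4 h with none at 0 h under 500 bp away (distances of the grey points are binned). The 6 positions of the Kdm6b window, 46 to 83 counts at 8.40 to 15.8 kb, stand apart from the other positions 2 kb or more away, the tallest of which has 32 counts.

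As a tile, the window had 382 H3K27me3 counts at 4 h and 39 at 0 h, a ratio 6.17 times the median tile (interval 4.43 to 8.81). This was higher than 99.7% of 10286 tiles, and 28 tiles were higher still. By the highest count in a tile it was 4.08 times the median, and in the 30 kb tile with the Jmjd3 position, which leaves out 3 of the 6 positions, 3.58 times. A ratio of at least 2 times the median was reached by 10.3% of tiles, and a ratio of 1/2 or less by 4.05%. The block supplied 342 of the 382 counts.

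The block lay near some listed peaks of the other marks and far from others. In bulk chromatin, marks on the same and on different cells or alleles cannot be told apart. Of its 6 positions, 2 lay inside the wide H3K4me3 cluster of 4 h (10.7% of all H3K27me3 positions of 4 h lay in such a cluster), and none lay inside an H3K4me3 cluster of 0 h (10.4%). Pol II of 0 h was listed under 500 bp from 2 of the 6, against 1.96% of that list's positions. Pol II of 2 h was that near to 4 of the 6 (2.34% over the list). Pol II of 4 h was that near to none (2.1%), its nearest position being 1.27 kb away. The 6 positions are neighbours in 1 block, and the shares are over the whole list and not over loci with Pol II. They are therefore too few and too alike to read a difference between marks or times from. The Jmjd3 position of 2 h was 3.67 kb from the nearest of the block. H3K27me3 was not mapped at 2 h, so its level beside the 2 h Pol II and Jmjd3 peaks is unknown. The block rests on 1 library, and whether its tags came from H3K27me3 chromatin was not tested.

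The tiles most like the window were sought among the 3039 other tiles with a Jmjd3 peak, by the Euclidean distance between percentile ranks of summed count in the 8 lists. The nearest was at 13.9 rank points, against a median of 122. It lay on chromosome 5, positions 45730000 to 45789999. The next lay on chromosome 17 (23290000 to 23349999), chromosome 15 (78670000 to 78729999), chromosome 2 (155470000 to 155529999) and chromosome 10 (77770000 to 77829999). These 5 tiles had a Jmjd3 count of 9 to 22 and summed Pol II counts at 2 h of 211 to 387, where the window had 10 and 307. All 8 counts, H3K27me3 included, entered the choice of tiles, so likeness in them was set by that choice and is not a finding. Their H3K27me3 counts were 137 to 265 at 4 h and 32 to 106 at 0 h, where the window had 382 and 39. At 4 h the window's summed count was therefore above that of each of these tiles, through the 6 positions of the block, whose source was not tested, and at 0 h it lay within their range.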

How the data were processed

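Each of the 8 ChIP-seq libraries came with 1 peak list. Per the file headers, the deposited value is a whole-number overlap count, a signal that the authors gave for single positions (Jmjd3, Pol II, H3K27me3) or for clusters with a start and an end (H3K4me3), with no scaling to depth or control stated. The submitters' processing notes name mm8 as the genome build. How tags were aligned and peaks called, and the exact depth, is not given in the sources used here, so counts of different libraries were set side by side or read relative to the median tile or pair.

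Positions under 500 bp apart, and clusters sharing 1 bp, counted as shared. Tiles of 60 kb ran in the phase of the window, within the span that all lists of an antibody cover, with a peak at both times. Intervals are exact Clopper-Pearson intervals at 95%. PCR copies are not independent molecules. A 2-fold departure from the median was the call rule. Every peak in the window was described, with the 5 most similar tiles. The window, sections and rules were chosen with earlier results of these data known. Planned gene lists were not run without an mm8 annotation. The search for the nearest position and the sums over tiles were checked on simulated lists. The matching of pairs behind the pair ratios was not. The tools were Python 3.11.15 with pandas 2.3.3, numpy 2.4.6, matplotlib 3.10.9 and scipy 1.17.1.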

Additional observations from a re-analysis of the deposited data

How the results depend on the processing

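Of 43 alternative values for 15 results, 26 stayed within the counting interval of the value given, or within 1.5 times for counts, and 17 moved. With peaks above the median count of their list, the Pol II ratio at 2 h over 0 h was 0.797, 2 Pol II positions were gained at 2 h and 1 at 4 h, and no Jmjd3 position was left (0). With 1 kb counted as shared, 1 Pol II position was lost at 2 h and 1 gained at 4 h. By highest count, the Pol II ratio at 4 h over 2 h was 0.800 and that of H3K27me3 4.08, and in 30 kb tiles they were 0.538 and 3.58. Covered length turned H3K4me3 above the median tile, at 1.24. A window of 120 kb held 2 Jmjd3 positions, and 84.1% of tiles with H3K4me3 had a lower Jmjd3 count, against 90.2% of all tiles.

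Chosen after seeing the data, 281 H3K27me3 positions of 4 h reached the block's lowest count 500 bp or more from any 0 h position, and 28 at 1 kb or more. At 5 kb the number was 6, the block itself. At 2 kb or more, 7 had at least 30 counts and 152 at least 20. Stretches with as many Pol II positions as the window's listed none at 4 h in 2.5% of cases. No paired analysis was possible because each group is 1 library. Each comparison rests on 1 library a time, so no library could be left out of it. Low peaks such as that of Jmjd3 are limited by the unknown depth.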
